A study of Rattus norvegicus with 6 samples.

Results

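Zdhhc3, Zdhhc21 and Zdhhc22 encode DHHC palmitoyl transferases, and the results here cover the 3 loci that the transcript annotation of the series names after them, out of 24744 loci in all. Each locus was taken with all of its transcript models, 10 isoforms of 64488, of which 6 passed the filter on low counts (32348 isoforms passed in all). To pass, a feature needed 50 or more counts in at least 2 libraries of a strain. RNA came from whole brains of male rats of 2 inbred strains, with 3 rats each, and each rat gave 1 library. The strains were SHR (SHR/OlaIpcvPrin), the spontaneously hypertensive rat, and BNLx (BN-Lx/CubPrin), a congenic Brown Norway rat that carries polydactyly-luxate syndrome. No rat was treated, and their age is not given in the labels. An inbred strain stands for 1 genotype, so all differences below are between 2 genotypes, and replicates are separate rats of 1 strain.

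Palmitoylation is the reversible attachment of a fatty acid to cysteines of a protein through a thioester bond, which brings soluble proteins to membranes and steers membrane proteins between compartments. DHHC enzymes, named after the aspartate-histidine-histidine-cysteine motif of their catalytic domain, attach the fatty acid, and thioesterases such as Lypla1 and Ppt1 remove it. In neurons the modification acts on scaffold proteins, receptors, ion channels and proteins of vesicle release. Zdhhc3, also known as GODZ from work in mouse, is a Golgi enzyme that acts on the gamma2 subunit of GABA-A receptors. Zdhhc21 acts on Src family kinases such as Fyn, and its loss in mouse gives the depilated coat. Zdhhc22 acts on the BK potassium channel Kcnma1. Many brain transcripts also differ in where they end. Each 3′ end of a transcript model is taken to stand for a polyadenylation site, but the ends here were annotated, assembled from reads or predicted, not measured. A longer last exon can hold additional binding sites for RNA-binding proteins and miRNAs. The study compared strains on an annotation in which aptardi, a program that predicts polyadenylation sites from sequence and read coverage, had added isoforms with new ends.

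The libraries held 21745968 to 41333079 expected counts in SHR and 11747048 to 32826625 in BNLx. SHR replicate 1 and BNLx replicate 3 stood apart: the chi-square of the counts over genes, per degree of freedom, was 123 and 114 where SHR replicate 1 was set against its strain mates, which differed from each other by 8.99, and 89.4 and 75.1 where BNLx replicate 3 was set against its own, which differed by 10.4. The edgeR results for genes, isoforms, 3′ ends and usage (joined ends aside) and the shares of counts were therefore also computed without these 2 libraries, as a choice made after the data were seen. Brain identity was checked on the neuronal markers Snap25 and Syt1 (2 of 4 listed markers with a locus of their own), whose summed level was 1880 to 3076 CPM (counts scaled to library size by TMM) in SHR and 2248 to 4131 CPM in BNLx. Microglial markers (2 of 4) summed to 42.2 to 50.3 CPM in SHR and 37.5 to 44.6 CPM in BNLx, and Tie1, the endothelial marker measured (1 of 4), to 17.8 to 21.0 CPM in SHR and 16.9 to 21.2 CPM in BNLx. Listed astrocyte, choroid plexus and pituitary markers had no locus of their own and were not used here. Listed genes were found by the gene names of the annotation, which 8334 of the 24744 loci carry. A listed gene without a locus of its own is therefore not shown to be absent. In whole brain RNA, fewer cells of a type and less RNA per cell cannot be told apart.

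All 3 loci lie on the minus strand of the rn6 assembly. Zdhhc3 (STRG.33183, Ensembl gene ENSRNOG00000004344) spans chr8:132160172-132204595 and has 5 isoforms with 3 starts and 3 ends. Zdhhc21 (STRG.21009, ENSRNOG00000010484) spans chr5:100935230-100983481 and has 2 isoforms that share 1 end. Zdhhc22 (STRG.25421, ENSRNOG00000011285) spans chr6:111005859-111023933 and has 3 isoforms with 2 starts and 3 ends. In each locus an isoform assembled from the reads starts upstream of a transcript that Ensembl holds, by 15207 bases in Zdhhc3, 13438 bases in Zdhhc21 and 8335 bases in Zdhhc22. aptardi added 3 isoforms, 2 in Zdhhc3 and 1 in Zdhhc22, and each of them repeats an original transcript with a longer last exon.

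**Figure D1:**
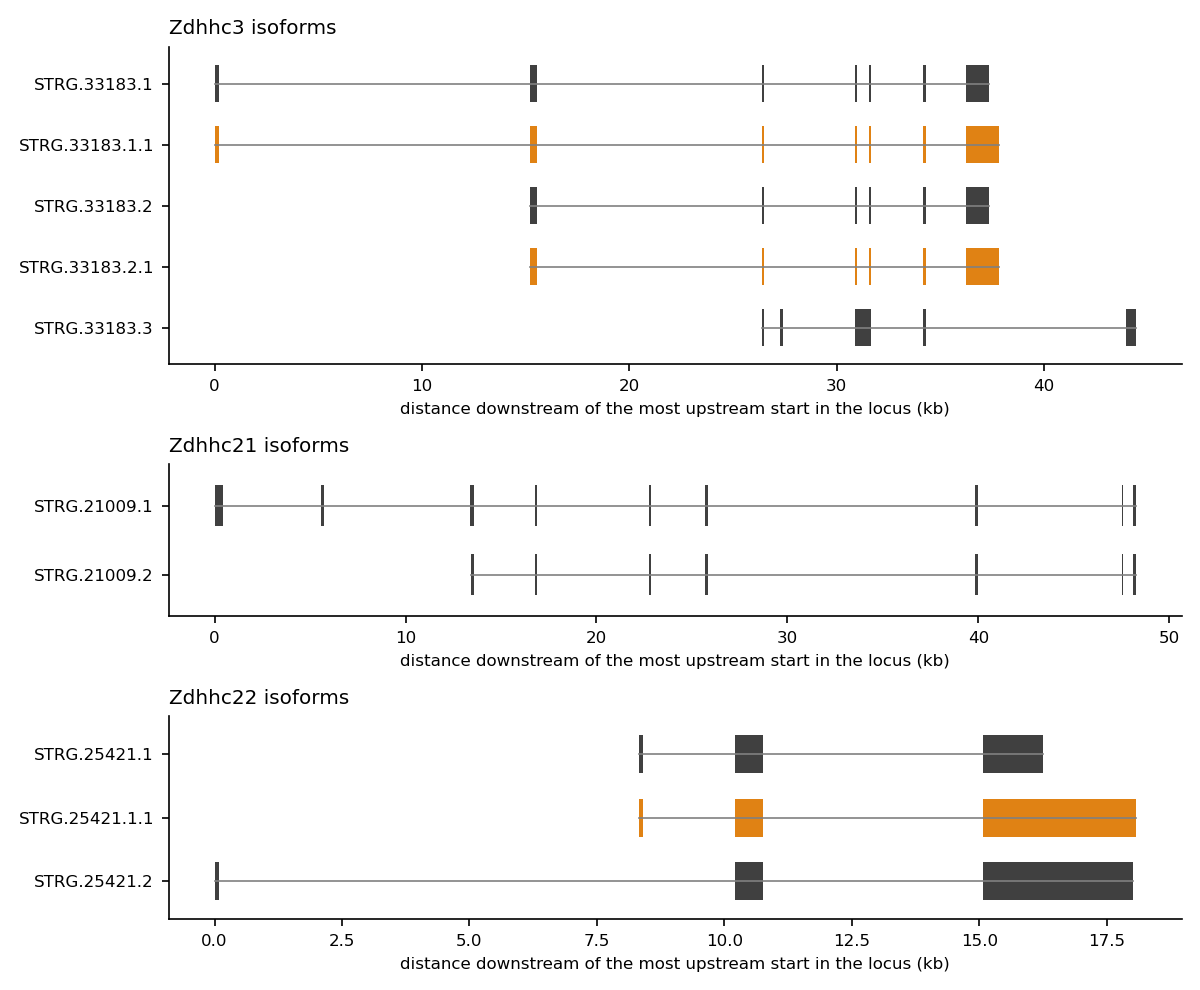
Transcript models of Zdhhc3, Zdhhc21 and Zdhhc22, drawn to scale in the direction of transcription. The horizontal axis is the distance in kb from the most upstream start of the locus, boxes are exons and lines introns, and orange marks the 3 isoforms that aptardi added, whose last exons reach 486 bases further in Zdhhc3 and 1815 bases further in Zdhhc22.

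The added stretch in Zdhhc22 is long among such isoforms. Over the 4095 aptardi isoforms of the series that are longer than their original, the median extension was 682 bases, 74.8% extend by fewer than the 1815 bases of Zdhhc22, and 42.8% by fewer than the 486 bases of Zdhhc3. In Zdhhc22 the last exon has 3000 bases in the aptardi isoform STRG.25421.1.1 and 1185 bases in its original STRG.25421.1 (Ensembl ENSRNOT00000015046). The third isoform, STRG.25421.2, takes the upstream start and ends 58 bases short of the aptardi end, so it carries almost the same long last exon.

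RefSeq gives 1 promoter window per gene on the GRCr8 assembly, from 250 bases before to 50 bases after the start of the gene, and all 3 genes had an entry. These windows are shown for Zdhhc22 and Zdhhc21 because their base composition lies at opposite ends among the 3 genes. Which of the rn6 starts each window belongs to was not established, since the assemblies differ. Capitals mark GGGCGG or its reverse complement CCGCCC, the core of the GC box.
Zdhhc22 (chr6:112369784-112370083, minus strand): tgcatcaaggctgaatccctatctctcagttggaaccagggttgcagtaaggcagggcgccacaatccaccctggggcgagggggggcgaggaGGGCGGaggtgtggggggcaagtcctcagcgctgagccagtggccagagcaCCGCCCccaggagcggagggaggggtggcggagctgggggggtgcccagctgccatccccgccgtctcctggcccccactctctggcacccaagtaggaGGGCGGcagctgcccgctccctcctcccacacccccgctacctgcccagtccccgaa
Zdhhc21 (chr5:102327198-102327497, minus strand): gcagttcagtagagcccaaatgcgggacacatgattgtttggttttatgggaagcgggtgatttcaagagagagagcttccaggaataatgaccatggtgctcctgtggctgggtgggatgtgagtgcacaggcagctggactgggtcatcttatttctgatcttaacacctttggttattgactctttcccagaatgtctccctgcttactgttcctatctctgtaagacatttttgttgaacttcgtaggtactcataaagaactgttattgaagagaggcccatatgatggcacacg
The Zdhhc22 window has a GC content of 70.0%, 14 CpG dinucleotides and 3 matches to GGGCGG on either strand. The Zdhhc21 window has a GC content of 45.7%, 4 CpG dinucleotides and no such match. The Zdhhc3 window (chr8:131650949-131651248, minus strand) has a GC content of 67.7% and 38 CpG dinucleotides, more than 95.8% of all windows, and also no match to GGGCGG. Over 33469 RefSeq windows of this length the median GC content was 51.7%, the median number of CpG was 7, and 33.1% held GGGCGG on either strand. TATAAA (14.2% of windows, either strand) and CCAAT (37.5%, either strand) matched in none of the 3. These matches describe letters only and are not evidence that a factor binds.

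At the level of the whole gene, no strain difference passed the test for any of the 3 transferases (edgeR quasi-likelihood test, Benjamini-Hochberg adjusted p of 0.05 or less). None of the 3 had an unadjusted p under 0.05 in edgeR, and DESeq2 also called 0 of them. Of the 14471 genes tested, 1.02% passed. Levels per length, in TPM (transcript abundances corrected for length), place Zdhhc3 among the better expressed of these genes. Zdhhc3 averaged 46.6 ± 1.69 TPM in SHR and 47.9 ± 8.13 TPM in BNLx (SD, n = 3 each), close to the other transferases Zdhhc5 (51.2 TPM in SHR and 49.3 TPM in BNLx) and Zdhhc9 (49.3 TPM in SHR and 50.9 TPM in BNLx). Zdhhc22 averaged 33.5 ± 16.5 TPM in SHR and 42.4 ± 16.9 TPM in BNLx, and Zdhhc21 averaged 14.2 ± 8.28 TPM in SHR and 7.78 ± 2.14 TPM in BNLx. The order Zdhhc3, Zdhhc22, Zdhhc21 held for the means of both strains, but the spreads of Zdhhc3 and Zdhhc22 overlap in each of them, as do those of Zdhhc22 and Zdhhc21 in SHR.

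Zdhhc3 had almost the same total in the SHR libraries and a wider range in BNLx. Its level, scaled to library size, was 50.6, 49.8 and 49.0 CPM in SHR replicates 1 to 3, against 47.9, 51.7 and 58.4 CPM in BNLx replicates 1 to 3. BNLx replicate 3 was the highest of the 6, and the strains overlap. The log2 fold change, SHR over BNLx, was -0.08 (SE 0.11, 95% interval -0.34 to 0.18, edgeR adjusted p = 0.857). It moved to 0.00042 without BNLx replicate 3. The genes with the most similar profiles over the 6 libraries, among 3943 genes with a name of their own and a mean of at least 10 CPM, were Cert1, Adam23 and Supt3h, whose centred log2 levels differed from those of Zdhhc3 by a root mean square of 0.0323, 0.0329 and 0.0339 (median over all genes 0.22).

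Zdhhc21 was the least abundant member, with 86.03, 148 and 132.76 counts in SHR replicates 1 to 3 and 77, 31 and 52.45 counts in BNLx replicates 1 to 3. Scaled to library size this gave 1.99, 6.98 and 6.06 CPM in SHR, against 2.37, 2.69 and 4.02 CPM in BNLx. SHR replicates 2 and 3 lie above all BNLx libraries, while SHR replicate 1 lies below all of them, so the strains overlap. The log2 fold change was 0.73 (SE 0.50, 95% interval -0.49 to 1.95, edgeR adjusted p = 0.703). Without SHR replicate 1 and BNLx replicate 3 it was 1.38 (SE 0.20, edgeR adjusted p = 0.00783) and passed the test, in a fit of 2 against 2 libraries that called 4172 of 14471 genes, or 28.8%. With a single library left out it ranged from 0.41, without SHR replicate 2, to 1.12, without SHR replicate 1 (edgeR adjusted p = 0.142), and passed in none of these fits. SHR replicate 1 is the library with the lowest sum of the neuronal markers, 1880 CPM, and the part of these libraries in the result was not tested beyond these fits. The nearest profile was that of Cbl, an E3 ubiquitin ligase, with a root mean square difference of 0.058 on the centred log2 scale (median over all genes 0.656), followed by Dbf4 at 0.134 and Zyg11b at 0.136. Cbl had 30.5, 89.7 and 83.4 CPM in SHR and 35.9, 35.7 and 55.9 CPM in BNLx, with the same low SHR replicate 1 and the same BNLx replicate 3 above the other BNLx libraries.

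Zdhhc22 had 20.8, 52.0 and 47.6 CPM in SHR replicates 1 to 3, against 46.8, 62.5 and 86.1 CPM in BNLx replicates 1 to 3. SHR replicate 1 was the lowest library by a wide margin and BNLx replicate 3 the highest, and the remaining SHR and BNLx libraries lie close together. The log2 fold change was -0.70 (SE 0.39, 95% interval -1.64 to 0.24, edgeR adjusted p = 0.617). Without these 2 libraries it was -0.12 (SE 0.14, edgeR adjusted p = 0.567). They are also the libraries with the lowest neuronal marker sums of their strain, 1880 CPM in SHR replicate 1 and 2248 CPM in BNLx replicate 3, and the part of this in the Zdhhc22 level was not tested. The nearest profiles were those of Napepld at a root mean square difference of 0.114, Rims3, a protein of the presynaptic active zone, at 0.158, and Adamts15 at 0.21 (median over all genes 0.66). Napepld had 10.4, 24.3 and 20.8 CPM in SHR and 26.4, 30.98 and 45.4 CPM in BNLx. In each of these totals the strains overlap, so 0 of the 3 members had separate strains, where 17.4% of all genes did.

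**Figure D2:**
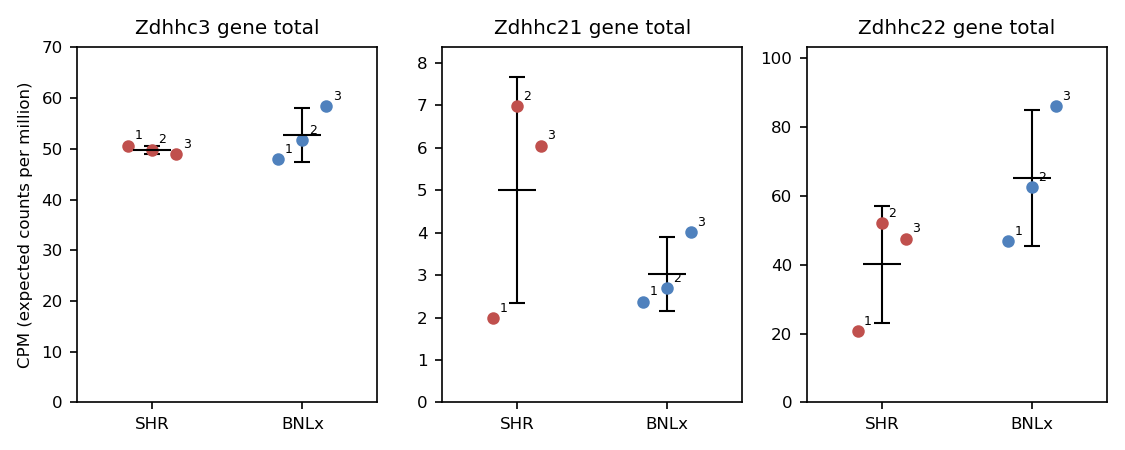
Gene totals of Zdhhc3, Zdhhc21 and Zdhhc22 in CPM (counts scaled to library size) in the 3 SHR and 3 BNLx libraries. Points are libraries with their replicate number, and bars are the mean and SD of a strain; SHR replicate 1 is the lowest library for Zdhhc21 (1.99 CPM) and Zdhhc22 (20.8 CPM), and Zdhhc3 stays between 47.9 and 58.4 CPM.

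No difference in the make-up of the Zdhhc22 locus passed a test with edgeR. Its aptardi isoform with the long last exon was lower in every SHR library than in any BNLx library, while the isoform with the short last exon took a larger share of the locus in every SHR library. In edgeR, the difference of the aptardi isoform did not pass the threshold used for isoforms, an unadjusted p of 0.001. Of the 32348 isoforms, 1% passed it. The study used DESeq2 at this threshold, and DESeq2 also called the isoform here (unadjusted p = 0.000223). This isoform had been listed by the study for its difference in the same libraries, so testing it again adds no independent evidence.

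The aptardi isoform of Zdhhc22, STRG.25421.1.1, had 13.2, 26.1 and 18.5 CPM in SHR, against 35.3, 61.6 and 78.4 CPM in BNLx. The highest SHR library lies below the lowest BNLx library. Its log2 fold change was -1.60 (SE 0.39, 95% interval -2.56 to -0.64, unadjusted p = 0.00685 and adjusted p = 0.251 in edgeR). Of the 6 member isoforms it was the only one whose strains did not overlap in CPM, and 1 of 6 is close to the background, since 16.5% of all isoforms tested did not overlap. DESeq2 called it at an unadjusted p of 0.000223 with a log2 fold change of -1.60 (adjusted p = 0.00797), and DESeq2 called 1166 isoforms in all, against 324 in edgeR. Without SHR replicate 1 and BNLx replicate 3 the log2 fold change was -1.11 (SE 0.36, edgeR adjusted p = 0.166).

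The original isoform with the short last exon, STRG.25421.1, had 3.41, 16.03 and 11.8 CPM in SHR, against 3.17, 0 and 8.63 CPM in BNLx. It was high in SHR replicates 2 and 3 and at 0 in BNLx replicate 2, and the strains overlap. Its log2 fold change was 1.41 (SE 1.44, edgeR adjusted p = 0.854), with a 95% interval from -2.15 to 4.97 that leaves its direction undetermined. The isoform from the upstream start, STRG.25421.2, had 4.45, 9.43 and 16.8 CPM in SHR, against 8.79, 0 and 0 CPM in BNLx. It was seen in all SHR libraries and in a single BNLx library, at a log2 fold change of 1.77 (SE 1.91, edgeR adjusted p = 0.861).

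**Figure D3:**
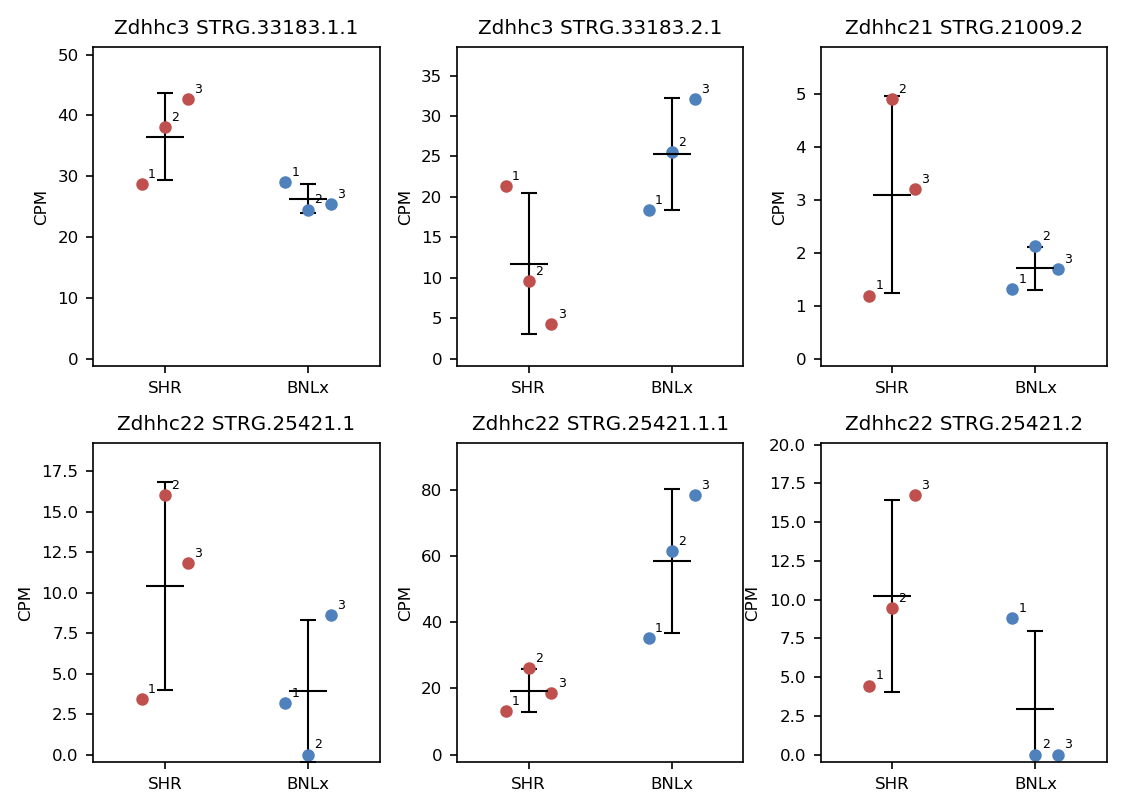
Levels in CPM of the 6 isoforms of Zdhhc3, Zdhhc21 and Zdhhc22 past the filter on low counts, in 3 SHR and 3 BNLx libraries (points with replicate numbers; bars are mean and SD). Only for the aptardi isoform STRG.25421.1.1 of Zdhhc22 do the strains stay apart, at 13.2 to 26.1 CPM in SHR and 35.3 to 78.4 CPM in BNLx, as they do for 16.5% of all isoforms tested.

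Shares of the locus counts do not depend on the scaling to library size. The aptardi isoform took 62.6%, 50.7% and 39.3% of the Zdhhc22 counts in SHR replicates 1 to 3, against 74.7%, 100% and 90.1% in BNLx replicates 1 to 3, a mean of 50.9% ± 11.7 in SHR and 88.3% ± 12.8 in BNLx (SD, n = 3 each). The short isoform STRG.25421.1 took 16.2%, 31.1% and 25.1% in SHR, against 6.70%, 0% and 9.92% in BNLx. For both isoforms the strains do not overlap, and the exact two-sided permutation test gave p = 0.1, the smallest value that 3 against 3 libraries can give. The shares of 16.7% of all isoforms in loci with more than 1 isoform did not overlap between the strains. The upstream isoform STRG.25421.2 took 21.2%, 18.3% and 35.6% in SHR, against 18.6%, 0% and 0% in BNLx, and the strains overlap (exact permutation p = 0.2). From counting error alone, the 0 counts in BNLx replicates 2 and 3 would allow a share of up to 0.417% and 0.267%. These limits treat every read of the locus as assigned with certainty. Only 86 of the 3568 bases of STRG.25421.2 are its own, so its share is less tightly bounded than this. When shares were taken of TPM, which corrects for the shorter length of STRG.25421.1, that isoform averaged 39.8% ± 10.03 in SHR and 10.7% ± 9.72 in BNLx (SD, n = 3 each).

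The position where Zdhhc22 transcripts end was examined by summing isoforms with the same 3′ end. The end at 111005859 is used by the aptardi isoform alone and gave a log2 fold change of -1.59 (SE 0.39, edgeR unadjusted p = 0.00719 and adjusted p = 0.232), where 1.1% of the 22312 ends passed the threshold of 0.001. DESeq2 called this end at an unadjusted p of 0.000185 (adjusted p = 0.00656), and DESeq2 called 845 ends in all, against 245 in edgeR. The end holds the same counts as the aptardi isoform, so its call is not separate evidence. Joined with the end 58 bases away, at 111005917, the distal end gave -1.05 (SE 0.36, 95% interval -1.92 to -0.17, edgeR unadjusted p = 0.0265 and adjusted p = 0.396). Its share of the locus was 83.8%, 68.9% and 74.9% in SHR, against 93.3%, 100% and 90.1% in BNLx, with no overlap between the strains (exact permutation p = 0.1), as for 17.5% of all joined ends in loci with more than 1. Most Zdhhc22 counts therefore fell on the distal end in every library of both strains. The margin was smaller in SHR when shares were taken of TPM, which corrects for the greater length of the distal isoforms. By TPM the joined distal end took 70.9%, 51.1% and 58.5% of the locus in SHR replicates 1 to 3. Its mean by TPM was 60.2% ± 10.03 in SHR and 89.3% ± 9.72 in BNLx (SD, n = 3 each). The proximal end at 111007674, the Ensembl end, gave a log2 fold change of 1.43 (SE 1.41, edgeR adjusted p = 0.805).

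Usage within the Zdhhc22 locus, the test of whether its isoforms changed by unequal amounts, did not pass (edgeR diffSpliceDGE, adjusted p = 0.604, among 7742 loci of which 4.37% passed). The same test on 3′ ends gave an adjusted p of 0.549 in edgeR (5096 loci, 3.06% passed), and on joined ends 0.46 (4559 loci, 3.29% passed). The split between the aptardi isoform and STRG.25421.2 rests on few bases. Both reach at least 1757 bases beyond the end of STRG.25421.1, so the split from the short isoform rests on a longer stretch. STRG.25421.1 has 0 bases that no other Zdhhc22 isoform covers, the aptardi isoform has 58, and STRG.25421.2 has 86 and 1 exon junction of its own.

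Zdhhc3 showed similar totals in both strains, with counts divided mainly between 2 starts. Both isoforms with appreciable counts are aptardi isoforms that end at 132166761, and the originals that end 486 bases earlier, STRG.33183.1 and STRG.33183.2 (Ensembl ENSRNOT00000005817), were at 0 counts in all 6 libraries. Each original has 0 bases and 0 junctions of its own. The 0 counts therefore rest on how RSEM divided shared reads and do not show that the originals are absent. An original at 0 in all libraries was found for 15.9% of the 6678 aptardi isoforms past the filter, and for 28.8% of the 2396 that are longer than their original. The aptardi end took on average 97.0% of the Zdhhc3 counts in SHR and 97.8% in BNLx, and its sum did not pass the test between strains (log2 fold change -0.09, SE 0.12, 95% interval -0.38 to 0.20, edgeR adjusted p = 0.853).

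The Zdhhc3 isoform from the upstream start, STRG.33183.1.1, had 28.7, 38.0 and 42.7 CPM in SHR, against 29.0, 24.5 and 25.4 CPM in BNLx. SHR replicates 2 and 3 lie above all BNLx libraries and SHR replicate 1 lies among them. Its log2 fold change was 0.47 (SE 0.19, 95% interval -0.01 to 0.95, edgeR adjusted p = 0.572). The isoform from the Ensembl start, STRG.33183.2.1, had 21.3, 9.55 and 4.29 CPM in SHR, against 18.3, 25.6 and 32.1 CPM in BNLx. Here SHR replicates 2 and 3 lie below all BNLx libraries, and SHR replicate 1 again lies among them. Its log2 fold change was -1.11 (SE 0.60, 95% interval -2.58 to 0.37, edgeR adjusted p = 0.699).

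In shares, the upstream isoform took 56.0%, 77.0% and 88.1% of the Zdhhc3 counts in SHR, against 60.002%, 48.0% and 43.0% in BNLx (mean 73.7% ± 16.3 in SHR and 50.3% ± 8.74 in BNLx, SD, n = 3 each, exact permutation p = 0.2). The strains overlap through SHR replicate 1 and BNLx replicate 1. Isoform usage in Zdhhc3 had an edgeR diffSpliceDGE adjusted p of 0.292, with an unadjusted p of 0.0335 that ranks it at 888 of 7742 loci. It passed in 1 of the 6 fits that left out a single library, without SHR replicate 1 (edgeR adjusted p = 0.0202, beside 571 called loci, against 338 with all libraries), and was as high as 0.83 without SHR replicate 2. Without SHR replicate 1 and BNLx replicate 3 it was 0.0259 in edgeR, beside 1771 called loci, and with the replicate number as a block it was 0.439. The upstream isoform has 231 bases and 1 junction that the other expressed Zdhhc3 isoforms lack, while STRG.33183.2.1 has 1 base of its own.

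The remaining Zdhhc3 isoform, STRG.33183.3 (Ensembl ENSRNOT00000087427), starts furthest downstream and ends 6589 bases beyond the aptardi end. It stayed under the filter with 1.204, 1.82 and 1.497 CPM in SHR and 1.04, 0.903 and 1.57 CPM in BNLx, a share of 3.04% ± 0.668 in SHR and 2.19% ± 0.442 in BNLx (SD, n = 3 each). Its end lies 8 positions from an unnamed locus with a single exon on the plus strand, and the start of Zdhhc3 lies 9 positions from that of Exosc7, a subunit of the RNA exosome, also on the plus strand. The libraries do not mark strand, so reads of such neighbours cannot be told apart where they meet. Exosc7 had 9.31, 6.79 and 6.16 CPM in SHR and 11.1, 11.6 and 6.44 CPM in BNLx (log2 fold change -0.39, edgeR adjusted p = 0.729).

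**Figure D4:**
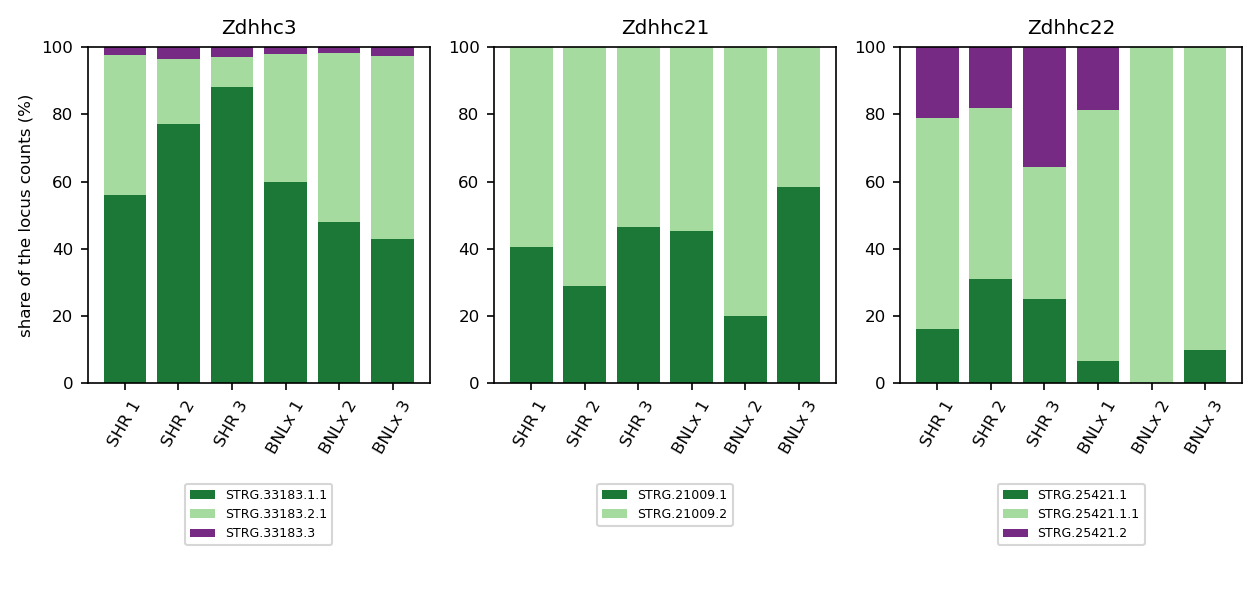
Share of the locus counts, in percent, taken by each isoform above 0 in Zdhhc3, Zdhhc21 and Zdhhc22, with 1 bar per library, SHR left and BNLx right. The short isoform STRG.25421.1 of Zdhhc22 takes 16.2% to 31.1% in SHR and 0% to 9.92% in BNLx, and in Zdhhc3 the upstream isoform STRG.33183.1.1 takes 77.0% and 88.1% in SHR replicates 2 and 3.

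In the transcript models, Zdhhc21 differed from the other 2 loci in having a single 3′ end, with no end added by aptardi, and a last exon of 133 bases. Whether Zdhhc21 transcripts reach beyond this modelled end was not tested. Its isoforms differ in their start. The shorter one, STRG.21009.2 (Ensembl ENSRNOT00000013950), had 1.19, 4.91 and 3.202 CPM in SHR, against 1.31, 2.12 and 1.69 CPM in BNLx. SHR replicates 2 and 3 were the highest and SHR replicate 1 the lowest, at a log2 fold change of 0.85 (SE 0.61, 95% interval -0.65 to 2.35, edgeR adjusted p = 0.782). The longer one from the upstream start, STRG.21009.1, stayed under the filter at 0.818, 2.01 and 2.79 CPM in SHR and 1.09, 0.529 and 2.38 CPM in BNLx. The shorter isoform took 61.2% ± 8.91 of the locus in SHR and 58.7% ± 19.6 in BNLx (SD, n = 3 each, exact permutation p = 0.9), so the isoforms of Zdhhc21 showed no detectable shift in share at these counts. The shorter isoform has 0 bases and 0 junctions of its own, so its share rests on how RSEM divided shared reads. The 95% Wilson intervals of single-library shares, which cover counting error only, were 14.5 to 27.1 percentage points wide in Zdhhc21, 0.531 to 6.31 in Zdhhc22 and 1.27 to 8.003 in Zdhhc3. An unnamed locus of 2 exons on the same strand begins 2097 bases beyond the Zdhhc21 end and had 59.5, 76.6 and 73.2 CPM in SHR, against 69.1, 76.8 and 67.5 CPM in BNLx (log2 fold change -0.03, edgeR adjusted p = 0.966). That locus was level across libraries in which Zdhhc21 was not.

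**Figure D5:**
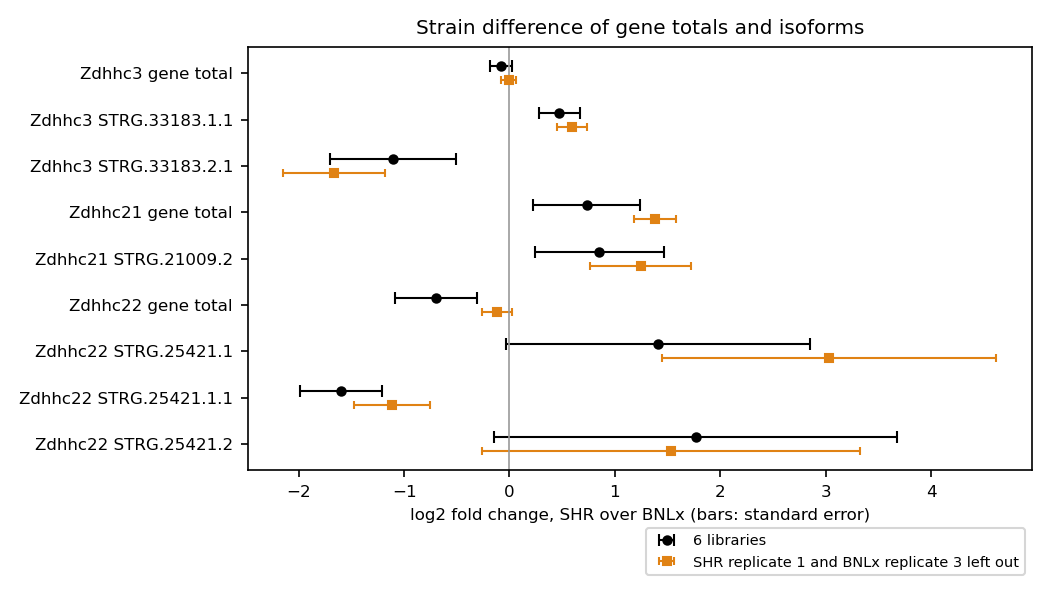
Log2 fold changes, SHR over BNLx, with standard errors for the gene totals and the 6 isoforms of Zdhhc3, Zdhhc21 and Zdhhc22, in all 6 libraries (black circles) and without SHR replicate 1 and BNLx replicate 3 (orange squares). The Zdhhc21 total is 0.73 with all libraries and 1.38 without those 2, the Zdhhc22 total is -0.70 and -0.12, and the aptardi isoform of Zdhhc22 is -1.60 and -1.11.

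Other genes of the palmitoylation cycle gave a similar count of 0 calls. Of 21 other DHHC transferases listed, 4 had a locus of their own and all 4 were tested, with 0 called in edgeR, 0 at an unadjusted p under 0.05 and a median log2 fold change of -0.05 (all 14471 genes: median 0.00038, with 73 higher and 74 lower in SHR). Zdhhc15, a Golgi enzyme that acts on the scaffold PSD-95, was highest at 0.44 (edgeR adjusted p = 0.617), with 6.40 ± 1.17 CPM in SHR and 4.69 ± 0.93 CPM in BNLx (SD, n = 3 each). Zdhhc5, an enzyme of the plasma membrane, Zdhhc12 and Zdhhc9, an enzyme of Ras proteins, had log2 fold changes of -0.04, -0.05 and -0.12. Of 9 depalmitoylases, 4 were tested and 0 called in edgeR, with a median of -0.13. Of these, 1 had an unadjusted p under 0.05 in edgeR, as did 1478 of all 14471 genes. That depalmitoylase was Lypla1, at 76.8, 57.1 and 63.8 CPM in SHR and 91.8, 85.7 and 96.8 CPM in BNLx (log2 fold change -0.47, SE 0.14, edgeR adjusted p = 0.296). Its strains did not overlap, as for 17.4% of all genes. Ppt1 (-0.22), Abhd17a (-0.04) and Lypla2 (-0.01) were closer to 0. Of 24 palmitoylated neuronal proteins, 12 were tested and 0 called in edgeR, none of them at an unadjusted p under 0.05 and 9 with a positive log2 fold change (median 0.09). Over all 14471 genes tested, 7244 had a positive log2 fold change. The accessory proteins Golga7, Golga7b and Selenok had no locus of their own here. Without SHR replicate 1 and BNLx replicate 3, edgeR called Zdhhc15 (0.73, adjusted p = 0.0301), Lypla1 (-0.56, adjusted p = 0.00856) and 6 of the neuronal proteins, with Ncam1, Cnr1 and Bace1 higher and Snap25, Stmn3 and Cdc42 lower in SHR, where 28.8% of all genes were called.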

How the data were processed

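PolyA RNA of whole brain was sequenced in 6 libraries, 3 per strain. Per the labels and methods, the authors aligned reads with HISAT2 to strain genomes made from rn6, built a transcriptome with StringTie 1.3.5 on top of the Ensembl annotation, extended it by aptardi 1.0.0 and quantified it with RSEM. The libraries do not mark strand. The deposited values are expected counts and TPM, which the authors' RSEM run gave per gene and isoform in each library. Ambiguous reads are divided by the model, so isoforms with few bases of their own are uncertain.

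Expected counts were rounded and fitted over all features with edgeR 4.0.16 in R 4.3.3 (TMM, two-sided quasi-likelihood test on strain alone), at 50 counts in 2 of 3 replicates of a strain. Calls used an adjusted p of 0.05 for genes and usage (diffSpliceDGE), and an unadjusted p of 0.001 for isoforms and 3′ ends. CPM are counts relative to the TMM-scaled library size. Alternatives used DESeq2 1.42.0, limma 3.58.1 on log2(TPM + 1), other size factors, other filters, thinning to the smallest library, and joining ends within 100 bases. DESeq2 was the tool of the study's own strain comparison. Scripts were tested on simulated data. The members and gene lists were chosen with earlier results of these data known. Named genes were the members, called list genes, the 2 highest and 2 lowest of the other transferases and depalmitoylases, the 3 nearest profiles per member, and, chosen after their values were seen, neighbouring loci and the neuronal proteins called in the smaller fit. Of the 3 same-numbered pairs only replicate 2 deviated together (correlations -0.0659, 0.35 and -0.241), so the numbers were not taken as pairs. Wilson intervals and the limits for 0 counts cover counting error only and treat each read as assigned with certainty. The intervals of log2 fold changes include the spread between rats. Promoter windows come from RefSeq. The oligodendrocyte marker list is not reported here.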

Additional observations from a re-analysis of the deposited data

How the results depend on the processing

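Values of the members and lists and counts of calls were recomputed under other size factors, filters, tools, TPM, depth and libraries. Of the tested values 5 became stronger and 1 reversed, 37 counts or shares moved, and 338 values stayed on their side of the threshold (counts: within 1.5 times; shares: within 1 SD). No member was called in the main fit, so none could become weaker. A tested member value that stayed on its side is one that was again not called. The small share difference of STRG.21009.2 in Zdhhc21, 2.49 percentage points, has no settled direction: it was -2.36 without SHR replicate 2, -6.14 without BNLx replicate 3, -5.25 after thinning and -5.18 without SHR replicate 1 and BNLx replicate 3. DESeq2 called 543 genes, 1166 isoforms and 845 ends, among them the aptardi isoform of Zdhhc22 (log2 fold change -1.60) and its end (-1.59). limma on log2(TPM + 1) called 496 isoforms, and limma on voom weights 172 loci in isoform usage. Without SHR replicate 1 and BNLx replicate 3, chosen after seeing the data, the Zdhhc21 total was 1.38, the adjusted p of Zdhhc3 isoform usage 0.0259, and the calls 4172 genes, 939 isoforms, 1089 ends, 1771 loci in isoform usage, 1675 loci in end usage, 1 other transferase, 1 depalmitoylase and 6 neuronal proteins. With shares of TPM, also chosen after seeing the data, the difference of STRG.25421.1 was 29.1 percentage points, against 18.6 with counts; the cause of the other changes was not tested.

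With a single library left out, edgeR called 12 to 156 genes (147 with all; 12 without SHR replicate 2, 36 without SHR replicate 3, 14 without BNLx replicate 1 and 38 without BNLx replicate 2), 183 to 400 isoforms, 115 to 318 ends, 204 to 577 loci in isoform usage and 97 to 407 in end usage. The Zdhhc3 total ranged from -0.15 to 0.00042 and reversed without BNLx replicate 3, and the adjusted p of Zdhhc3 isoform usage ranged from 0.0202, without SHR replicate 1, to 0.83. STRG.25421.2 of Zdhhc22 ranged from 1.19 to 10.8 and its end from 1.21 to 10.8, the highest without BNLx replicate 1, when the remaining BNLx libraries are at 0 and the value is no bound.

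With the replicate block, 0 genes, 48 isoforms and 63 ends were called, and it changed no member's call (Zdhhc22 total -0.76, edgeR adjusted p = 0.501). At 31 to 148 counts per library, Zdhhc21 is the member most limited by depth.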
